A study of Mus musculus with 3 samples.

Results

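Clusters of NUR77 binding regions, in which at least 3 regions follow each other at short distance, were described across the mouse macrophage genome. Regions were taken from the authors' deposited table of intervals in which at least 2 of 3 replicates had a ChIP-seq peak. Touching intervals were joined to regions, regions on the same chromosome were chained where centres lay within 50 kb divided by 4, or about 13 kb, of the next, and chains of 3 or more regions were kept on the 19 numbered chromosomes. This gave 349 clusters with 1257 regions, out of 9800 regions in all and 9486 on the numbered chromosomes. Of the latter, 13.3% were in clusters, 2148 regions stood in 1074 pairs, and 6081 were isolated, with no other region centre at that distance. Members were chosen by the positions of called peaks and by their presence in at least 2 lists. Cluster number, size, span and spacing follow from this rule and are given as descriptions with no test.

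The study profiled 3 replicates of 1 group. RAW264.7, an established mouse macrophage line, carried the pINDUCER20b-HA-NUR77 construct, and all 3 replicates received 1 µg/mL doxycycline for 18 hours. Each replicate was grown in 6 dishes and precipitated with a mouse antibody against the HA tag. The protein measured is therefore an induced, tagged form and not the cell's own NUR77, and no sample without induction was analysed here. The labels do not say whether the replicates were separate in time, so the spread between them may be technical.

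NUR77, also called NR4A1, is an orphan nuclear receptor that is induced rapidly in activated macrophages and represses part of their inflammatory response. It binds DNA as a monomer at the NBRE element, as a dimer at NurRE elements, or together with the retinoid X receptor. Regulatory regions of a mammalian gene often lie in groups over some kilobases. The joining distance is of a size customary for grouping enhancers, but was measured here between region centres. Measured between facing edges of regions, the same distance gave 365 clusters with 1314 regions. No gene is assigned to the regions, because the positions are of build mm9 and an annotation or genome of that build was not used here. Sequences of the regions are not printed for the same reason.

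The lists behind the clusters differed in length: replicate 1 held 6777 peaks, replicate 2 held 37307 and replicate 3 held 8862. Each peak carries the authors' score, whose scale is not stated. It was turned into a percentile of its own list, where 100 is the best-scored peak. In replicate 2, 549 peaks share the score 959 and thereby the percentile 99.1, and 100 cluster regions lie in that tie. Read depth is unknown here, and the lack of a called peak does not show the lack of binding.

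Most clusters were short. Of the 349 clusters, 239 (68.5%) held 3 regions, 69 held 4 and 19 held 5. The remaining 22 clusters held 6 to 13 regions, and 8 of them held 9 or more. The span from the first to the last base had a median of 14.8 kb and ranged from 2.23 to 62.2 kb. Clusters of 3 had a median span of 12.9 kb, clusters of 4 had 17.7 kb and clusters of 5 had 24.4 kb. Together the clusters covered 5.64 Mb, of which the regions themselves filled 8.32%.

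**Figure D1:**
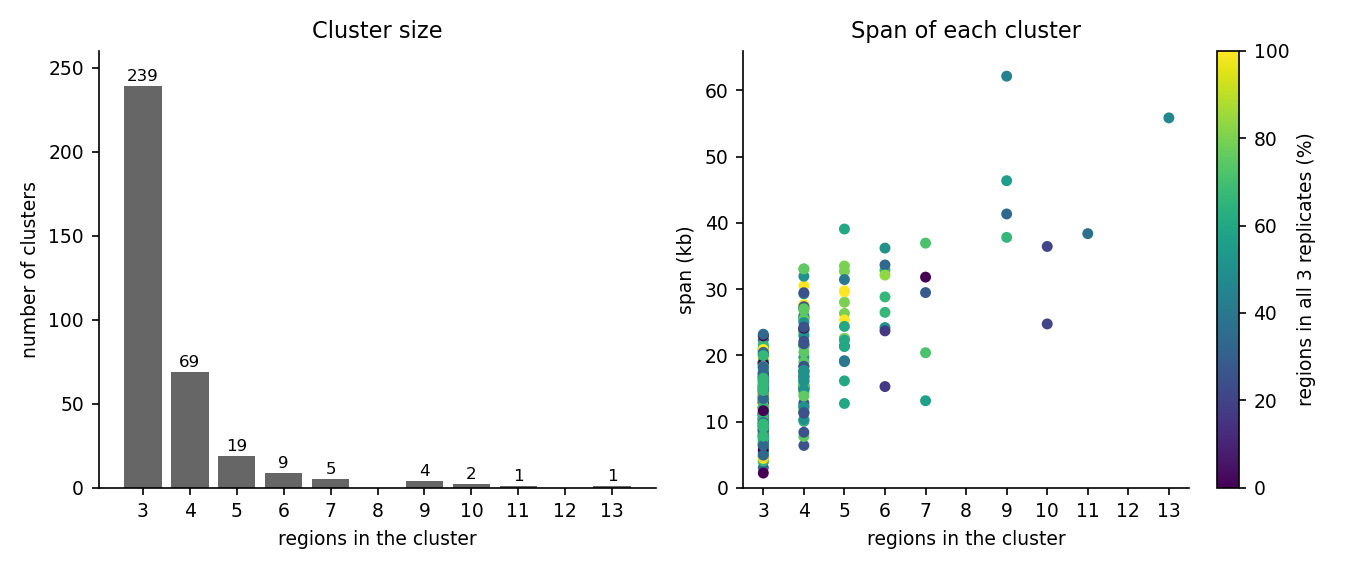
Left, the number of clusters (bars) by the number of regions they hold. Right, the span of each cluster in kb by its number of regions, 1 point per cluster, coloured by the percentage of its regions with peaks in all 3 replicates; 239 clusters hold 3 regions, and the 62.2 kb span belongs to a cluster of 9.

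Within the clusters, neighbouring centres lay a median of 5.73 kb apart, with quartiles of 3.39 and 8.72 kb. Of the 908 neighbour distances, 101 were under 2 kb and 22 under 1 kb. At 20 of the 908 a single peak of some list reached over both neighbours, and 17 of these involved replicate 2, so a few neighbouring regions are parts of 1 broad peak. The joining distance does not fall at a gap in the data. The largest distances just inside it were 12351 to 12463.5 bp, and the smallest just outside it, beside a cluster, were 12524 to 12798 bp. Among all regions of the numbered chromosomes, 330 neighbour distances fell in the 2.5 kb below the joining distance and 306 in the 2.5 kb above it. A cluster could also have another close by: 73 clusters had a further cluster within 100 kb, and the closest lay 12701 bp apart, on chromosome 1. The width of the regions was a median of 359 bp in clusters and 350 bp elsewhere. In clusters 12 regions were at most 50 bp wide, and each of these counts as a full region in the cluster sizes.

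The share of regions in clusters differed between chromosomes. On chromosome 13, 100 of 496 regions (20.2%, 95% Wilson interval 16.9 to 23.9) were in 25 clusters. Chromosome 1 followed with 157 of 839 regions (18.7%, 16.2 to 21.5) in 38 clusters. Chromosome 16 had 74 of 428 (17.3%, 14 to 21.2) and chromosome 2 had 152 of 910 (16.7%, 14.4 to 19.3). The lowest shares were 15 of 360 regions on chromosome 15 (4.17%, 2.54 to 6.76) and 16 of 262 on chromosome 19 (6.11%, 3.79 to 9.69). Counting only the regions with a peak of a given replicate, chromosome 13 had 23.1%, 20.0% and 19.4% of its regions in clusters in replicates 1, 2 and 3, and chromosome 15 had 4.18%, 3.92% and 3.96%. Membership was set from the 3 lists together, so the closeness of these shares is no measure of the spread between replicates. The intervals cover counting error only, and regions of 1 cluster are not independent of each other. Membership depends on how densely regions lie on a chromosome, and the shares were not adjusted for this density.

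The cluster with most regions lay on chromosome 13 at 23789320 to 23845180, with 13 regions over 55.9 kb, 6 of them in all 3 replicates. Its strongest region, at 23808233 to 23808919, scored 259 in replicate 1, 959 in replicate 2 and 248 in replicate 3, at percentiles of 97.9, 99.1 and 96.0. The seventh region, at 23828020 to 23828582, scored 122, 959 and 187. The eighth, at 23832170 to 23832332, scored 200 in replicate 1 and 223 in replicate 3 and had no peak in replicate 2. High scores thus fell on separate regions of this cluster, with low-scored ones between them, such as the sixth, at 23824381 to 23824582, with 81.1 in replicate 2, 33.8 in replicate 3 and no peak in replicate 1. The last region of this cluster, at 23845170 to 23845180, was only 11 bp wide. The second cluster on this chromosome, at 23627020 to 23689180, ended 100140 bp before the larger one began. Its 9 regions spanned 62.2 kb, the longest span of all clusters. Its strongest region, at 23663920 to 23664519, scored 404, 284 and 478, at percentiles of 99.3, 86.8 and 99.1.

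On chromosome 8, 11 regions lay at 19932078 to 19970459. The strongest, at 19943026 to 19943509, scored 396 in replicate 1, 126 in replicate 2 and 472 in replicate 3. It was the 52nd peak of replicate 1 and the 84th of replicate 3, but reached only percentile 67.0 of replicate 2. The region at 19936660 to 19936959 scored 105 in replicate 1 and 509 in replicate 3, where it ranked 64, and was not called in replicate 2. The 3 lists therefore differed over this cluster, with replicate 2 below replicates 1 and 3 in percentile at its strongest region.

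On chromosome 5, 9 regions lay at 17322173 to 17363525. The strongest, at 17347926 to 17348575, scored 343, 959 and 787, ranking 70 in replicate 1 and 16 in replicate 3. The region at 17360326 to 17360853 scored 99.5, 959 and 117, and the last one, at 17363054 to 17363525, scored 250 in replicate 1 and 278 in replicate 3 without a peak in replicate 2. The other 6 regions lay before the strongest and scored 23.0 to 58.0 in replicates 1 and 3. In replicate 2, 4 of them scored 23.5 to 65.4, 1 had no peak and the sixth, at 17343354 to 17343722, scored 415, at percentile 92.3.

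On chromosome 1 at 85247255 to 85285073, 6 of 9 regions were in all 3 replicates and followed each other without a break, from the third region to the eighth. The strongest, at 85258355 to 85259054, scored 324, 878 and 525, at percentiles of 98.8, 98.0 and 99.4. The other 5 of these scored 39.5 to 128 in replicate 1, 59.0 to 307 in replicate 2 and 99.1 to 249 in replicate 3. A cluster of 7 regions ended 148602 bp before it, at 85078255 to 85098653, with 5 regions in all 3 replicates. Its strongest region reached percentiles of 79.3, 77.9 and 77.0 in replicates 1, 2 and 3. Regions outside clusters had medians of 49.9, 83.4 and 50.0, so this region was below that median in replicate 2 only. Another large cluster of this chromosome, at 163412274 to 163458654, held 9 regions, 5 of them in all 3 replicates, and its strongest region lay at its start, at 163412274 to 163412804, with scores of 74.7, 428 and 102.

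In 3 other large clusters, the region with the highest mean percentile had no peak in 1 of the 3 lists. On chromosome 9 at 89091298 to 89116047, 10 regions lay within 24.8 kb, 2 of them in all 3 replicates. The region with the highest mean percentile, at 89093898 to 89094247, scored 510 in replicate 2 and 90.9 in replicate 3 and had no peak in replicate 1. On chromosome 1 at 87485274 to 87521723, 10 regions held 2 in all 3 replicates. The strongest, at 87487755 to 87488154, scored 291 in replicate 1 and 403 in replicate 3 with no peak in replicate 2. The fifth and sixth regions of this cluster had the same score in replicate 2, 263. On chromosome 2 at 79443647 to 79475466, 7 regions were called in replicates 2 and 3 and none in replicate 1. Its scores were 35.1 to 716 in replicate 2 and 27.2 to 97.9 in replicate 3. Of the 34 clusters without any region in all 3 replicates, this held the most regions. Among the remaining large clusters, a cluster of 7 on chromosome 9, at 88613998 to 88627149, and a cluster of 7 on chromosome 7, at 117671512 to 117700994, each had the strongest region at its end. This region was at percentiles of 97.3, 97.7 and 92.4 in the former and 63.0, 99.1 and 65.6 in the latter. The third region of the former, at 88620457 to 88620496, was only 40 bp wide. The last cluster of 7, on chromosome 5 at 58239826 to 58276775, was outside the naming rule by its longer span. It held 5 regions in all 3 replicates, and its strongest region, at 58276176 to 58276775, was also at its end, with scores of 160, 985 and 173 and percentiles of 93.8, 99.9 and 91.9.

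**Figure D2:**
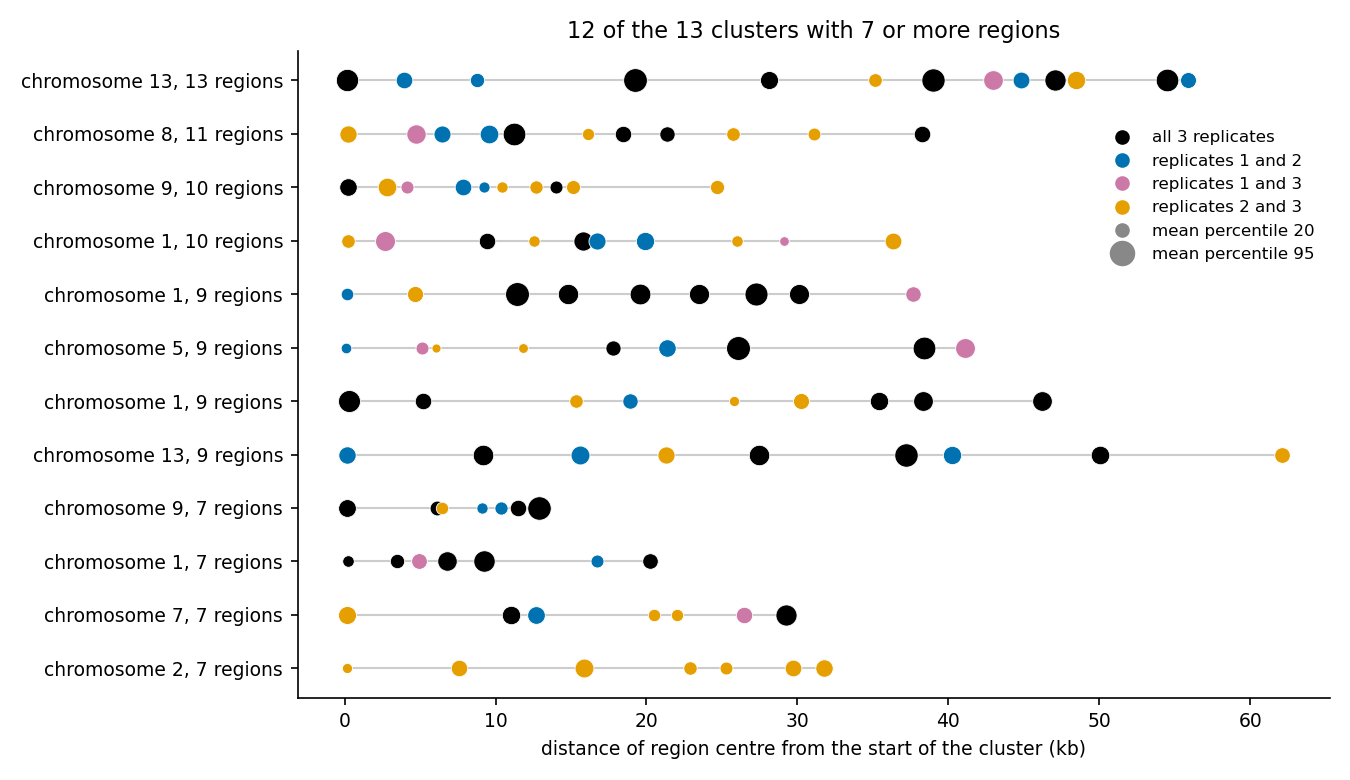
12 of the 13 clusters with 7 or more regions, 1 line per cluster; of the 5 clusters of 7, the one with the longest span is not shown. Each point is a region at the distance of its centre from the cluster's start in kb; its colour gives the replicates with a peak there and its size the mean score percentile over the 3 lists, an absent peak counted as 0. The cluster of 13 has 6 regions in all 3 replicates, and the chromosome 2 cluster of 7 has none.

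Some of the best-scored regions of the data stood in small clusters beside neighbours with lower scores. On chromosome 4, the middle region of 3, at 15921487 to 15922066, scored 707, 959 and 933, ranking 10 in replicate 1 and 11 in replicate 3. The region before it scored 41.0 in replicate 1 and 272 in replicate 2, and the one after it 294 and 34.7 in replicates 2 and 3. On chromosome 2, the last region of 3, at 129729047 to 129729648, scored 600, 959 and 831, while 1 of its neighbours had no peak in replicate 1 and the other none in replicate 3. On chromosome 1, the first of 3 regions, at 182756624 to 182757273, scored 450, 959 and 790, and neither of the others was in all 3 replicates. In these clusters the mean percentile, with an absent peak counted as 0, was 99.5 to 99.6 for the strongest region and 43.4 to 51.1 for the next. Each of the 6 neighbours lacked a peak in 1 list, which lowers its mean, and in replicate 2 they were at percentiles of 59.3 to 91.9.

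Elsewhere several strong regions stood together. On chromosome 2 at 46215699 to 46227046, the outer regions of 3 scored 550, 959 and 698 and 527, 959 and 657 in replicates 1, 2 and 3. The middle region, at 46221347 to 46221748, reached 110 and 176 in replicates 1 and 3 and had no peak in replicate 2. On chromosome 11 at 87236507 to 87263006, 4 of 6 regions were in all 3 replicates, and each of these 4 was at percentile 94.0 or above in every list. They scored 177 to 431 in replicate 1, 485 to 959 in replicate 2 and 228 to 564 in replicate 3, while the other 2 regions were at percentile 33.1 or below where they had a peak. On chromosome 1 at 107620274 to 107648303, 4 of 5 regions were in all 3 replicates. The strongest of them, at 107644824 to 107645423, scored 494, 959 and 773 and the next, at 107628124 to 107628704, scored 187, 695 and 298. On chromosome 3 at 78956868 to 78977669, the first region scored 532, 959 and 723 and the one after it 102, 653 and 250.

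In 38 clusters every region was called in all 3 replicates, and 33 of these held 3 regions. The 5 larger ones were 3 clusters of 5 and 2 of 4. On chromosome 16 at 24608371 to 24638120, the first of 5 regions had scores of 357, 959 and 505 and the fifth scored 126, 723 and 188, while the 3 between them scored 40.9 to 71.0 in replicate 1 and 64.2 to 141 in replicate 3. On chromosome 3 at 96030720 to 96056069, the strongest of 5 regions was the last, at 96055520 to 96056069, which scored 142, 622 and 188. On chromosome 7 at 97168091 to 97197690, the 5 regions scored 26.5 to 81.0 in replicate 1, 279 to 823 in replicate 2 and 46.7 to 132 in replicate 3. Of the clusters of 4, that on chromosome 11 at 51725034 to 51752706 had its strongest region at 51735284 to 51735686 with 95.2, 959 and 143. That on chromosome 2 at 116814749 to 116845248 had it at 116814749 to 116815346 with 421, 959 and 522. The tightest of the clusters held by all 3 replicates was on chromosome 2 at 27353397 to 27357416, where 3 regions within 4020 bp scored 23.1 to 68.7, 26.6 to 37.6 and 58.3 to 74.8. On chromosome 13 at 21842433 to 21846882, 3 regions lay within 4450 bp, and the middle one, at 21844670 to 21845130, scored 112, 203 and 107.

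Slightly more of the cluster regions than of other regions were called in all 3 replicates, and the sign of the difference depended on the joining distance. Of the 1257, 647 (51.5%, 95% Wilson interval 48.7 to 54.2) had peaks in all 3 replicates, against 48.0% of all regions of the numbered chromosomes, 47.1% (45.0 to 49.2) of regions in pairs and 47.6% (46.3 to 48.8) of isolated regions. The share was 51.5% in clusters of 3, 51.1% in clusters of 4, 65.3% in clusters of 5 and 44.4% in clusters of 6 or more, so it had no steady order with size. Cluster regions minus all others gave 4.03 percentage points, and -0.719 with a joining distance of 5 kb. In 277 clusters some but not all regions were in all 3 replicates.

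The replicates contributed unequally. A peak of replicate 1 was present at 910 cluster regions (72.4%, 69.9 to 74.8), against 65.4% of all regions and 63.6% (62.4 to 64.8) of isolated regions. A peak of replicate 3 was present at 82.8% (80.6 to 84.8) of cluster regions, against 84.3% of all regions. Replicate 2, the longest list, was present at 96.3% (95.1 to 97.2) of cluster regions, against 98.3% of all regions and 99.0% (98.8 to 99.2) of isolated regions. Replicate 2 was thus missing at 47 cluster regions, or 3.74% (2.82 to 4.94), against 0.970% (0.753 to 1.25) of isolated regions, and in clusters of 6 or more it was missing at 16 of 169, or 9.47% (5.91 to 14.8). The 47 regions were spread over 44 clusters, with no more than 2 in any of them.

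**Figure D3:**
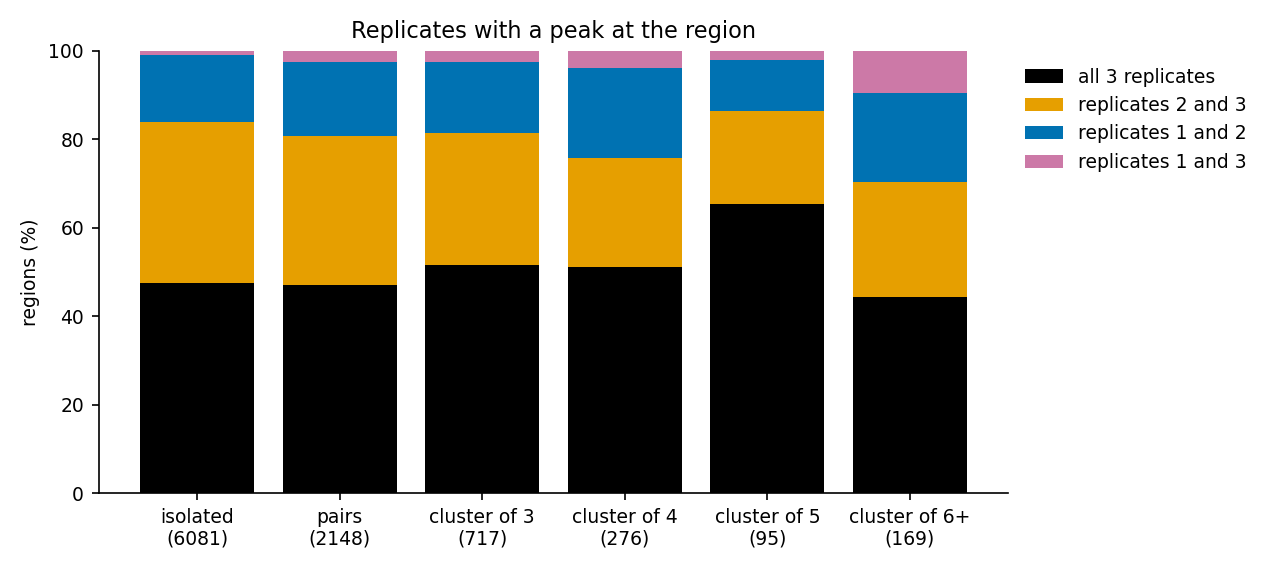
Percentage of regions (stacked bars) by the replicates that had a peak there, for isolated regions, pairs and clusters by size, with the number of regions under each bar. The part held by replicates 1 and 3 without replicate 2 is 0.970% for isolated regions and 9.47% in clusters of 6 or more.

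Of the 47 cluster regions without replicate 2, 9 were in the best 10% of both other lists. These were chosen after their values were seen. The highest-ranked in replicate 3 was on chromosome 5 at 91336004 to 91336353, with 240 in replicate 1 and 471 in replicate 3. Next in replicate 3 came the chromosome 1 region at 87487755 to 87488154, given above, and a chromosome 6 region at 106386562 to 106386895, with 287 and 343. Among the 116 other regions without replicate 2, 20 were in the best 10% of both lists. The names of the peaks carry numbers that rise along each chromosome, with some numbers absent. At 4 of the 9 regions, and at 10 of all 47 (21.3%, 12.0 to 34.9), a number was skipped between the replicate 2 peaks on either side, against 18.5% of all steps in that list. At cluster regions without replicate 1, a replicate 1 number was skipped at 231 of 345 (67.0%, 61.8 to 71.7), against 35.8% of all steps. At those without replicate 3 it was 123 of 216 (56.9%, 50.3 to 63.4), against 36.4%. The shares were higher at isolated regions without a peak, with 71.9%, 30.5% and 77.4% for replicates 1, 2 and 3, so skipped numbers were no more frequent at cluster regions. Steps across a region without a peak are longer than most, and no source used here says what the absent numbers stood for.

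The lists also differed in the peaks that lay between the cluster regions and overlapped no region of the table. Within the cluster spans there were 36 such peaks of replicate 1, or 6.38 per Mb. In the 25 kb on either side there were 35, or 2.01 per Mb. In replicate 3 there were also 36 in the spans, or 6.38 per Mb, against 57 in the flanks, or 3.27. In replicate 2 there were 211, or 37.4 per Mb, against 778, or 44.6. The density in the spans was therefore 3.18 times that of the flanks in replicate 1, 1.95 times in replicate 3 and 0.839 times in replicate 2, a mean of 1.99 ± 1.17 (SD, n = 3). The direction was not shared by the 3 lists, and with a joining distance of 5 kb the mean was 1.10 ± 0.46. The rule leaves no region centre within the joining distance beyond a cluster's end. The flanks were thus chosen as poor in regions and the spans as rich, so the ratios are descriptions only.

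To measure binding in a replicate that had no part in forming the clusters, regions shared by 2 lists were clustered with the same rule and the third list was then read at them. Clusters from replicates 2 and 3 held 733 regions, and 65.3% (61.8 to 68.7) had a peak of replicate 1, against 58.1% of all such regions and 56.7% (55.4 to 58.0) of isolated ones. Clusters from replicates 1 and 2 held 513 regions, and 76.0% (72.1 to 79.5) had a peak of replicate 3, against 75.4% of all and 75.5% (74.2 to 76.8) of isolated ones. Clusters from replicates 1 and 3 held 310 regions, and 92.3% (88.7 to 94.7) had a peak of replicate 2, against 96.5% of all and 97.5% (96.9 to 97.9) of isolated ones. Pairs had 59.5% (57.1 to 61.9), 74.3% (71.6 to 76.9) and 93.6% (91.6 to 95.2) for held-out replicates 1, 3 and 2. For each of the 3 held-out replicates the intervals of pairs and clusters overlapped, for replicate 1 only narrowly. Cluster regions minus the others gave 8.0, 0.734 and -4.59 percentage points for held-out replicates 1, 3 and 2, a mean of 1.38 ± 6.32 (SD, n = 3), which is smaller than the spread between replicates. In the 3 held-out lists the presence of a peak thus moved in no common direction.

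**Figure D4:**
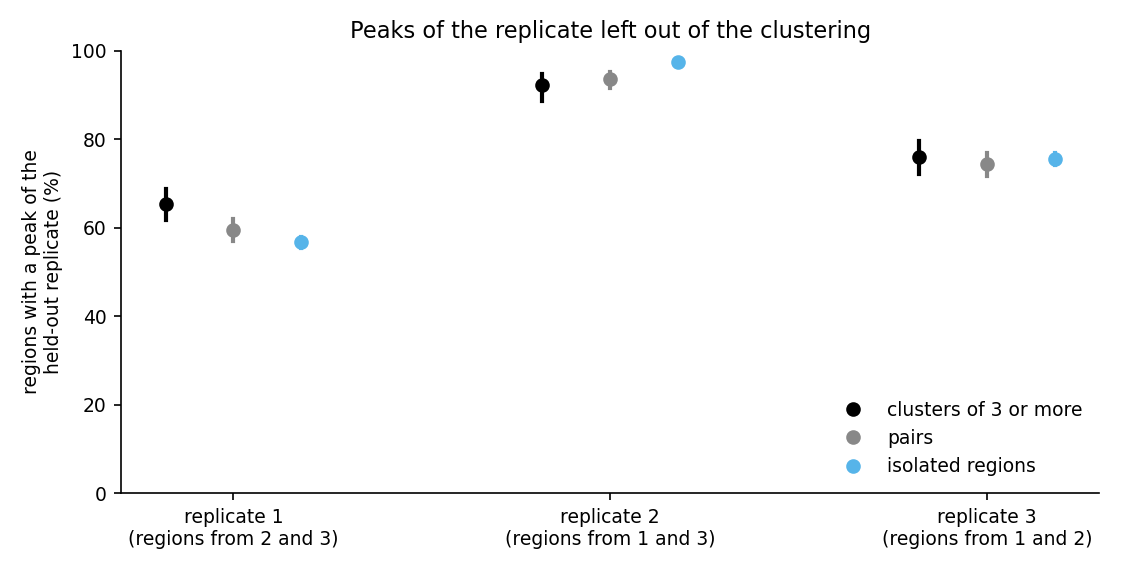
Percentage of regions with a peak of the replicate that was left out of the clustering, for regions in clusters, in pairs and isolated; points are shares and lines their 95% Wilson intervals. For held-out replicate 1 the clusters are highest, at 65.3%, and for held-out replicate 2 they are lowest, at 92.3%.

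Before matching by score, the median percentile of held-out peaks was higher in clusters than in other regions together in 3 of 3 lists. Where there was such a peak, its median score percentile was 70.5 in clusters and 59.4 in other regions for held-out replicate 1. The medians were 92.0 and 91.4 for replicate 2, and 74.7 and 65.5 for replicate 3. The differences of 11.1, 0.520 and 9.23 points had a mean of 6.93 ± 5.63 (SD, n = 3). Pairs alone had medians of 62.7, 92.4 and 69.8 for held-out replicates 1, 2 and 3, so for replicate 2 they lay above clusters. With 3 lists an exact sign permutation test could not reach the usual threshold, and none was applied. Regions were also divided into 4 equal groups by their mean percentile in the 2 lists used. In the highest group, a peak of held-out replicate 1 was present at 88.3% of cluster regions and 89.0% of others, and in the lowest group at 32.9% (26.0 to 40.6) and 21.5% (19.7 to 23.5). For held-out replicate 2, cluster regions were below the others in each of the 4 groups. The gap was widest in the group next to the lowest, with 86.9% (76.2 to 93.2) against 97.2% (96.1 to 98.0). In the other 3 groups, from the lowest up, it was 92.9% against 97.0%, 95.2% against 97.2% and 92.7% against 96.0%. The intervals overlapped in each of these 3. For held-out replicate 3 the values from the highest group to the lowest were 95.7% against 96.6%, 80.0% (72.5 to 85.9) against 88.8% (87.0 to 90.4), 71.6% against 73.3%, and 48.8% against 43.3%. Within these groups the differences in score were smaller, absent or of the opposite sign. For held-out replicate 1 the median percentiles from the lowest group to the highest were 26.8, 36.4, 57.8 and 86.7 in clusters and 24.4, 36.3, 56.2 and 83.7 in other regions. For held-out replicate 2 they were 75.6, 83.6, 92.8 and 98.0 in clusters and 80.8, 88.1, 93.5 and 98.0 in other regions, so clusters were not higher in any group. For held-out replicate 3 they were 38.2, 47.7, 69.5 and 91.9 in clusters and 31.1, 46.1, 66.6 and 89.2 in other regions.

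With all 3 lists in use, cluster regions also ranked higher than other regions in each list. The median percentile of regions with a peak was 60.0 against 49.9 in replicate 1, 85.7 against 83.4 in replicate 2 and 64.5 against 50.0 in replicate 3. The difference was 8.97 ± 6.17 points (SD, n = 3). Of the cluster regions with a peak, 144 of 910 (15.8%) were in the best 10% of replicate 1, against 9.96% of all regions with such a peak. In replicate 2 it was 474 of 1210 (39.2%) against 33.8%, and in replicate 3 it was 205 of 1041 (19.7%) against 10.3%. Pairs lay between, with medians of 54.9, 84.4 and 55.6. Clusters of 5 had medians of 71.6, 89.0 and 71.0, and clusters of 6 or more had 57.8, 71.7 and 65.9, so in replicate 2 the largest clusters ranked below isolated regions, which had 83.1.

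Ranks were uneven within a cluster. The strongest region of a cluster had median percentiles of 82.3, 96.1 and 85.1 in replicates 1, 2 and 3. The other 908 regions had 45.9, 79.0 and 50.8, against 48.2, 83.1 and 47.9 for isolated regions, a difference of -1.15 ± 3.60 points (SD, n = 3). Taking the best of each cluster raises the first set and lowers the rest by construction, so these are descriptions. Likewise 297 of the 349 strongest regions (85.1%, 81.0 to 88.5) and 350 of the other 908 (38.5%) were in all 3 replicates, where an absent peak counts as 0 in choosing the strongest. Of the 349 strongest regions, 133 had a mean percentile of 90 or above and 37 were below 50. Among all regions 766 of 9486 (8.08%) were at 90 or above, and among isolated ones 391 of 6081. Each strongest region is the best of at least 3, so an excess over single regions is again set by construction. The median gap to the next region of the same cluster was 15.4 percentile points. Of the 100 regions with the highest mean percentile on the numbered chromosomes, 29 were in clusters, 28 in pairs and 43 isolated, where the 9486 regions in all divide into 1257, 2148 and 6081.

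**Figure D5:**
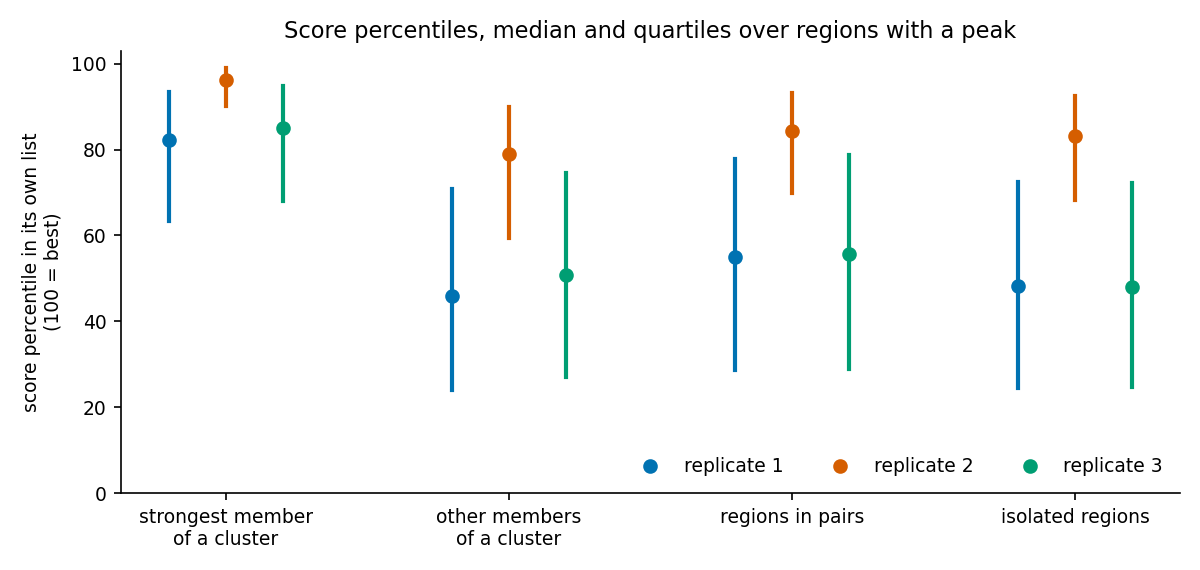
Percentile of the authors' score within its own list for the strongest region of each cluster, the other cluster regions, regions in pairs and isolated regions, in 3 replicates. Points are medians and lines reach from the lower to the upper quartile over regions with a peak; the strongest regions have medians of 82.3, 96.1 and 85.1, and the other cluster regions 45.9, 79.0 and 50.8.

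The lists mostly named the same region as the best of a cluster. Replicates 1 and 2 did so in 224 of 321 clusters (69.8%), replicates 1 and 3 in 230 of 337 (68.2%) and replicates 2 and 3 in 245 of 331 (74.0%), a mean of 70.7% ± 2.99 (SD over the 3 pairs of lists, which share lists). Clusters with a tie or without a peak in a list were left out. Where a list had a peak at only 1 region of a cluster, that region was its best by default. All 3 lists named the same region in 187 of 320 clusters (58.4%). In the 33 clusters of 3 in which every region was in all 3 replicates, so that each list chose among the same 3 regions, they agreed in 21 (63.6%).

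The strongest region had no fixed place. In the 239 clusters of 3 it was the middle one in 87, the one at the lowest coordinate in 80 and the one at the highest in 72. In the 110 clusters of 4 or more it was at an end in 51.

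Single lists held part of the clusters. In replicate 1, 171 of the 349 clusters had peaks at 3 or more of their regions, in replicate 2 it was 331 and in replicate 3 it was 239. In 113 clusters each of the 3 lists had peaks at 3 or more regions. No peak of replicate 1 was present in 11 clusters and none of replicate 3 in 1, while replicate 2 had a peak in all 349. When regions had to be in both of 2 given lists, the same rule gave 214 clusters from replicates 2 and 3, 146 from replicates 1 and 2, and 93 from replicates 1 and 3, so the number of clusters depended on replicate 2 more than on the others.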

How the data were processed

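HA-NUR77 ChIP-seq was measured in 3 replicates of 1 group. For each, the authors deposited a peak list with positions and a peak score, and for the series a table of intervals in at least 2 replicates. Per the submitters' processing notes, positions refer to build mm9. The peak names are of the form that MACS gives, per the deposited files. For the aligner, caller version, threshold and use of control input: not given in the sources used here. Read depth is unknown. Rebuilt from the lists, all 9800 regions had the table's borders. The table's names for replicates 2 and 3 are exchanged against the lists, so replicates follow the list of each sample. A region has a peak of a replicate where they overlap by at least 1 bp.

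Named were the 12 clusters with most regions (ties by shorter span), 8 others whose strongest region had the highest mean percentile, and 6 others with every region in all 3 replicates. Members and lists were chosen with earlier results of these data known. Planned gene lists, cell type markers and motifs need an mm9 annotation or genome, and were not used here. Wilson intervals (95%) beside a share cover its counting error alone. Alternatives were other joining distances, facing edges, regions joined within 500 bp, higher-scored peaks, chromosome X, 4 or more regions, regions of all 3 replicates, other readings of the scores and leaving out each replicate. The clustering code was tested on simulated data. Tables were made with pandas 2.3.3 and numpy 2.4.6 in Python 3.11.15, intervals with scipy 1.17.1, figures with matplotlib 3.10.9.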

Additional observations from a re-analysis of the deposited data

How the results depend on the processing

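The number of clusters was 84 (294 regions) with a joining distance of 5 kb, 683 (2713) with 25 kb, 102 (351 regions) from the higher-scored 50% of each list, 110 (540) with 4 or more regions required and 79 (258) from regions of all 3 replicates. Leaving out each replicate gave 93 to 214 clusters with 310 to 733 regions, lowest without replicate 2. The lower counts follow from shorter lists, shorter distances or stricter rules. The share of cluster regions in all 3 replicates was 47.3% with 5 kb and 58.7% with the higher-scored 50%, and the cause was not tested. The difference from other regions was -0.719 percentage points with 5 kb. The held-out difference had a mean of -3.50 points with 5 kb and -0.676 with 4 or more regions, and the cause was not tested. The share of strongest regions in all 3 replicates was 81.0% with 5 kb, 90% with 4 or more regions, and 71.3% when an absent peak was left out of the mean, which no longer lowers regions of 2 replicates. The mean difference in score percentile between cluster regions and others stayed positive under each of the 10 alternatives that could change it. It was smaller than its SD over lists with 5 kb (7.25 ± 8.03), without replicate 1 (8.10 ± 8.31) and without replicate 3 (5.69 ± 7.66). In the other alternatives the mean exceeded its SD. Where a replicate was left out, the mean and SD are over the remaining 2 lists only, so such an SD is a weak measure of spread. The direction in each single list is not given for the alternatives. The 11th, the lowest overlapping peak, could not change the difference, since no region had 2 peaks of 1 list. The alternatives of the held-out result, of the peaks between regions and of the difference in all 3 replicates were added after seeing the data. Leaving out a replicate leaves no value for the share in all 3. No paired analysis was possible because all replicates belong to 1 group.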

Other observations

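Outside the numbered chromosomes, chromosome X held 15 clusters by the same rule, with 54 of its 294 regions (18.4%), 23 of them in all 3 replicates. The largest had 7 regions at 121283607 to 121313178. On chromosome Y, 10 of 19 regions stood in 2 clusters, and the larger had 6 regions at 2777433 to 2795579.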
